A study of Mus musculus with 8 samples.

Results

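A set of 10 genes that carry, store or oxidise cholesterol inside the cell were followed in macrophages loaded with acetylated LDL. The genes were chosen by symbol, which took every array probe annotated to Npc1, Npc2, Stard3, Stard4, Stard5, Osbp, Soat1, Ch25h, Cyp27a1 or Cyp7b1. This gave 23 of the 45281 probes on the array. Of these 23 probes, 18 were tested, out of 17122 tested in all, and each of the 10 genes had at least 1 tested probe. A probe was tested when its detection p-value, which ranks its signal against the negative control beads of the same array, did not exceed 0.05 on 4 or more of the 8 arrays. Probes of the same gene share a target and are not independent observations.

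The comparison asks which transcripts differ once cultured macrophages have taken up acetylated LDL (Ac-LDL), as a model of the foam cell. The macrophages were elicited with thioglycollate and taken from the peritoneum. Thioglycollate is an irritant that draws macrophages into the mouse peritoneum, and Ac-LDL is a chemically modified lipoprotein that macrophages take up through scavenger receptors. The cells came from C57/BL6 mice aged 8 weeks, and 4 samples received Ac-LDL at 120 μg/ml for 24 h while 4 mock-treated samples served as control. Both groups shared strain, age and elicitation, and no genotype or other agent separated them. Samples were numbered 1 to 4 in each group as biological replicates, without a statement that they came from separate mice, so every p-value measures the spread between these samples. Replicates 1 and 2 of both groups were hybridised on one slide and replicates 3 and 4 on another. RNA was read on Illumina Mouse WG-6 v2.0 bead arrays, and levels are given as background-corrected, quantile-normalized log2 intensity, on which a difference of 1 is a doubling.

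Lipoprotein cholesteryl esters are cleaved in the lysosome, and the freed cholesterol leaves it by way of NPC2 and NPC1. Carriers with a START domain and oxysterol-binding proteins then move sterol between membranes, and acyl-CoA:cholesterol acyltransferase in the endoplasmic reticulum, encoded by Soat1, turns the surplus into the cholesteryl esters that fill foam cell droplets. Side-chain hydroxylases convert some cholesterol to oxysterols, which activate the liver X receptors (LXR) and hold back the sterol regulatory element-binding protein SREBP-2, the transcription factor that drives cholesterol synthesis.

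Probe sequences are shown for Ch25h, Stard5 and Cyp27a1, because the Ch25h reading rests on 1 probe and because the probes of the other genes differed in size of response. Each line gives the first 30 of the 50 bases of a probe, in lower case, 5′ to 3′ as the array annotation lists them. The Ch25h probe lies on chromosome 19, the Stard5 probes on chromosome 7 and the Cyp27a1 probes on chromosome 1.
Ch25h ILMN_2702303: gtatgaaatcgcactggaactgggctctaa
Stard5 ILMN_1227508: cccggccccataccttctcctgttagatca
Stard5 ILMN_2720674: gctggttgctgtaagacaccttgtccctgt
Cyp27a1 ILMN_2960114: tgtcacatgtcacgatgtcagattcaacag
Cyp27a1 ILMN_2960108: cgggatgggagaagtaaagactgtgtcccg
Cyp27a1 ILMN_2620326: gagacagtagtaccgagctgggctcccgcc
The Stard5 probes began at bases 2356 and 976 of the same annotated transcript.

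Promoter sequence from RefSeq (GRCm38.p6) was available for 7 of the 10 genes, namely Cyp27a1, Soat1, Stard5, Stard3, Npc2, Osbp and Ch25h. The 250 bases before each transcription start were searched on both strands for the letters TCACNCCAC, a form of the sterol regulatory element bound by SREBP, for ATTGG, the CCAAT box read from the other strand, and for GGGCGG, the GC box. The first was present in 1.05% of 32851 promoters searched in the same way and in 1 of the 7, Stard3. ATTGG was present in 33.8% of all promoters and in 6 of the 7, and GGGCGG in 32.7% of all promoters and in 5 of the 7. Ch25h held none of the 3 sets of letters, and Stard5 held ATTGG 2 times and GGGCGG 4 times. The counts of ATTGG and GGGCGG were 5 and 3 for Osbp, 2 and 3 for Npc2, 1 and 4 for Stard3, 2 and 1 for Cyp27a1, and 1 and 0 for Soat1. The promoters of Ch25h, Stard5 and Stard3 are shown 5′ to 3′ in the direction of transcription, with matches in capitals and no match overlapping another. They lie at chr19:34475149-34475398 on the minus strand for Ch25h, chr7:83631767-83632016 on the plus strand for Stard5 and chr11:98358118-98358367 on the plus strand for Stard3, where the TCACNCCAC match runs from 211 to 203 bases before the start. A match is a description of letters and was not tested for binding or for a link to the change with Ac-LDL.
Ch25h promoter: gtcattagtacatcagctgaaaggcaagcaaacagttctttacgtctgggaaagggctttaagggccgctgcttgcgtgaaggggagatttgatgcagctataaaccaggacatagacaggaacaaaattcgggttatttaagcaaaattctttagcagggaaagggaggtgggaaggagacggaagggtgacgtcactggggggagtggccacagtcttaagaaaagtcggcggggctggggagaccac
Stard5 promoter: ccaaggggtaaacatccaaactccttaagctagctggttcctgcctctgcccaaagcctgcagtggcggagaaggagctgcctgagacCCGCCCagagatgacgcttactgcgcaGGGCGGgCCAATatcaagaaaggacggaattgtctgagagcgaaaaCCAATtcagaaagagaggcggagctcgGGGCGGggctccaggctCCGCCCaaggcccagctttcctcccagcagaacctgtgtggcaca
Stard3 promoter: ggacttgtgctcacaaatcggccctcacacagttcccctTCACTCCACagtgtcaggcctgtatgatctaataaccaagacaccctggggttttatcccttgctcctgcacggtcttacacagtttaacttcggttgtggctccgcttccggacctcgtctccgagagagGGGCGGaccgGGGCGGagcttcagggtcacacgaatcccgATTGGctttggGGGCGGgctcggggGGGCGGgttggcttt

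The 8 arrays were alike in depth, with 16679 to 17439 probes detected per array and a median of 43 or 44 beads per probe. The 18 tested probes were read from 23 to 82 beads each, and the standard error between beads was at most 9.51% of the signal. Of 10 macrophage marker genes 9 were tested, with summed normalized levels, on the linear scale, of 73711 to 90504 in control and 77470 to 90187 in Ac-LDL samples, and none of their 16 probes was called. Their log2 fold changes ran from -0.48 for Cd14 to 0.61 for Fcgr1, an Fc receptor, which was the 1 probe of the 16 at an unadjusted p under 0.05 (95% interval 0.01 to 1.21, limma adjusted p = 0.942), and its part in the results was not tested. The probe of Msr1, a scavenger receptor that takes up Ac-LDL, was detected on 0 of 8 arrays. Markers of fibroblasts or mesothelial cells were also present, with Dcn at 13.2 and Upk3b at 11.4 in control samples, and their summed levels of 16800 to 22701 in control and 18460 to 20623 in Ac-LDL samples overlapped, with 0 of 12 probes called. Of these 12 probes 1 Dcn probe was higher (ILMN_1254458, by 0.25, adjusted p = 0.942) and the Col1a2 probe was lower (-0.23, adjusted p = 0.887, groups without overlap) at an unadjusted p under 0.05, against 2.73% and 2.47% of all tested probes, and their part in the results was not tested. Of the other marker lists, B cells, neutrophils, eosinophils and dendritic cells had 1 tested gene each, T cells had 2 and mast cells had 0. S100a8, the tested neutrophil gene, was 0.24 higher with Ac-LDL (95% interval 0.05 to 0.44, limma adjusted p = 0.845), and its part in the results was not tested. In RNA from whole cultures, fewer cells of a type and less RNA per cell cannot be told apart.

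The transcript of the START carrier Stard4 was lower in every Ac-LDL sample than in every control sample, 2.62-fold on average, and that of the oxysterol-forming enzyme Ch25h was lower in each of the 4 pairs of samples with the same number, 1.81-fold on average. The lysosomal exporters, Stard3, Osbp, Soat1 and Cyp7b1 differed by at most 0.23 on the log2 scale in either direction, and the probes of Stard5 and Cyp27a1 were 0.12 to 0.31 higher. In the two-group limma test adjusted over all 17122 probes (Benjamini-Hochberg), 0 of the 18 probes passed 0.05, against a background of 0.0409% of all tested probes (7 probes). With an unadjusted p under 0.05 there were 3, 1 higher and 2 lower, against 5.2% of all tested probes (2.73% higher and 2.47% lower), and the methods' t-test gave 2 at that level, against 1039 of all tested probes, and 0 of all tested probes after adjustment. Same-numbered samples deviated together across the array, and when the replicate number entered as a block 2 of the 18 probes were called, Stard4 and Ch25h, both lower, against 0.28% of all tested probes called lower and 0.444% called in either direction. With the slide as a block Stard4 alone was called, lower, against 0.321% in either direction and 0.234% lower.

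**Figure D1:**
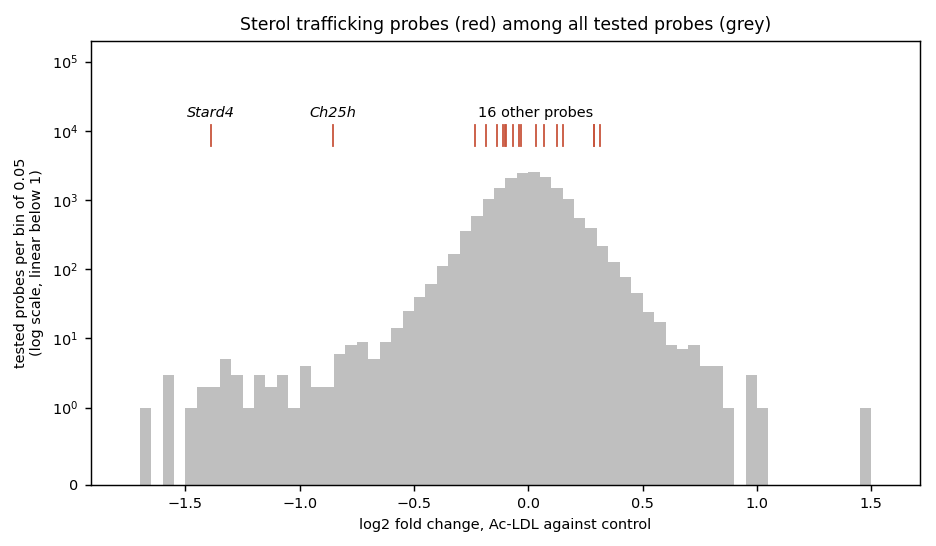
Log2 fold change (Ac-LDL against control, horizontal axis) of all 17122 tested probes as a grey histogram with the number of probes on a log axis, and of the 18 sterol trafficking probes as red ticks. The Stard4 tick at -1.39 and the Ch25h tick at -0.85 lie in the lower tail, and the other 16 lie between -0.23 and 0.31.

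The median log2 fold change of the 18 probes was -0.05, beside 0.00 over all tested probes, with 7 values above 0 and 11 below. Ordered from the lowest log2 fold change, Stard4 ranked 9 and Ch25h ranked 35 of 17122. Groups did not overlap for 2 of the 18 probes, Stard4 (lower) and 1 Stard5 probe (higher), against 3.8% of all tested probes (2.11% higher and 1.68% lower). The difference had the same sign in all 4 pairs for 7 of the 18 probes, 3 higher and 4 lower, against 21.8% of all tested probes (11.5% higher and 10.3% lower).

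**Figure D2:**
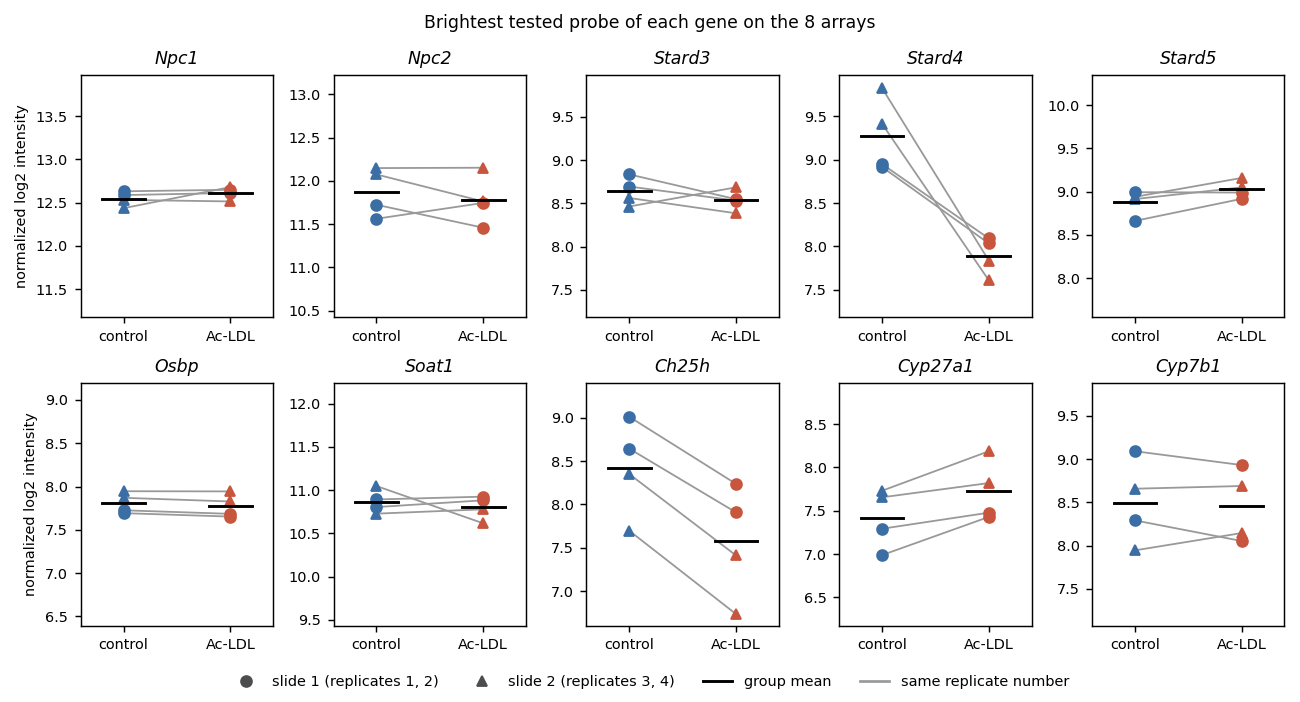
Normalized log2 intensity (vertical axes, of equal height in log2 units) of the brightest tested probe of each gene on the 8 arrays, with circles for slide 1, triangles for slide 2, bars for the group means and lines joining samples of the same number. The 4 Stard4 lines run down to groups that do not overlap, and the 4 Ch25h lines run down side by side from control values of 7.70 to 9.01.

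Export from the lysosome begins with NPC2, a soluble protein that takes up cholesterol in the lumen and hands it to NPC1 in the membrane. Npc2 measured 11.72, 11.56, 12.07 and 12.15 in control samples 1 to 4 and 11.46, 11.74, 11.76 and 12.15 in the Ac-LDL samples. The groups overlapped, 2 of 4 pairs were lower and 2 higher, and the difference was -0.10 (95% interval -0.48 to 0.29, limma adjusted p = 0.990).

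Npc1 encodes the membrane protein that passes this cholesterol out of the lysosome, and 3 of its 7 probes were tested, the other 4 being detected on 0 of 8 arrays. The brightest, ILMN_2427454, ran from 12.44 to 12.63 in control and from 12.51 to 12.68 in Ac-LDL samples, a difference of 0.07 (95% interval -0.13 to 0.26, adjusted p = 0.987). This probe was the most precise of the Npc1 readings, and the upper bound of its interval was 1.20-fold. Probe ILMN_1247075 differed by -0.19 (95% interval -0.70 to 0.33, adjusted p = 0.987), with control values of 8.91 to 9.52 and Ac-LDL values of 8.60 to 9.65. Its difference was -0.40 without Ac-LDL sample 4 and -0.05 without Ac-LDL sample 1. Probe ILMN_1250418 ran from 7.81 to 8.17 in control and from 7.63 to 7.85 in Ac-LDL samples, and it was lower in all 4 pairs by -0.23 (95% interval -0.48 to 0.01, adjusted p = 0.946). The last 2 probes are exact reverse complements of each other over 50 bases, so they read opposite strands of the same stretch. The annotation starts ILMN_1247075 at base 5031 and ILMN_1250418 at base 5080 of the same transcript. By these positions ILMN_1247075 runs along the transcript and ILMN_1250418 runs against it. This was not checked against the transcript sequence.

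The START domain is a lipid-binding fold, and the family members here have different routes, with STARD3 anchored in late endosomes and STARD4 and STARD5 soluble in the cytoplasm. Stard4, which carries cholesterol between the plasma membrane and the endoplasmic reticulum, measured 8.95, 8.92, 9.83 and 9.42 in control samples 1 to 4. In the Ac-LDL samples it measured 8.09, 8.03, 7.83 and 7.61. The highest Ac-LDL value lay below the lowest control value, and the slide 2 samples were both the highest of the controls and the lowest of the Ac-LDL samples.

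The Stard4 mean was 9.28 ± 0.43 (SD, n = 4) in control and 7.89 ± 0.22 (n = 4) in Ac-LDL samples, a log2 fold change of -1.39 (SE 0.20, 95% interval -1.84 to -0.94) or 2.62-fold lower (95% interval 1.91 to 3.57). The limma adjusted p was 0.0595 without a block, 0.0263 once replicate number was blocked and 0.0233 once slide was blocked, and over 28 alternative settings it ran from 0.0128 to 0.490 with the log2 fold change between -1.89 and -0.88. An exact two-sided permutation test over the 70 assignments of samples to groups gave p = 0.0286, the smallest it can give and the value of each of the 3.8% of tested probes whose groups do not overlap. In the replicate-blocked fit the call was lost without the samples numbered 3 (-1.19, adjusted p = 0.0631) or 4 (-1.25, adjusted p = 0.103).

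The Stard4 difference had the same direction on both slides at unlike sizes. The 2 pairs on slide 1 differed by -0.86 and -0.88, and those on slide 2 by -1.99 and -1.81. Within slide 1 alone the log2 fold change was -0.88 (limma adjusted p = 0.0605) and within slide 2 alone -1.89 (adjusted p = 0.0369). The difference between slides, -1.03, had a limma adjusted p of 0.415, and 0 of 17122 probes passed for that term, with 1435 at an unadjusted p under 0.05. Stard4 was the 1 probe among the 18 at that unadjusted level.

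Stard5, whose product binds cholesterol and is known from macrophages, had 2 tested probes. ILMN_1227508 measured 8.665, 8.847, 8.734 and 8.736 in control samples 1 to 4 and 8.993, 9.002, 8.980 and 9.148 in the Ac-LDL samples. Every Ac-LDL value was above every control value, by 0.29 on average (95% interval 0.09 to 0.48, or 1.22-fold), a separation found in this direction in 2.11% of all tested probes. The limma adjusted p was 0.763 without a block and 0.199 with the replicate block, so the probe was not called in either fit. ILMN_2720674 ran from 8.66 to 8.99 in control and from 8.92 to 9.16 in Ac-LDL samples, a difference of 0.15 (95% interval -0.08 to 0.38, adjusted p = 0.963). The 2 probes pointed the same way with overlapping intervals. Under median scaling in place of quantile normalization the difference was 0.16 for ILMN_1227508 and 0.03 for ILMN_2720674, and without control sample 1 the latter differed by 0.08.

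Stard3, whose product tethers late endosomes to the endoplasmic reticulum, ran from 8.46 to 8.84 in control and from 8.39 to 8.69 in Ac-LDL samples at its brighter probe, ILMN_2769734. That difference was -0.10 (95% interval -0.35 to 0.14, adjusted p = 0.986), and at ILMN_2892310 it was -0.14 (95% interval -0.42 to 0.14, adjusted p = 0.979). Without control sample 2 these differences were -0.04 and -0.08, and without control sample 3 they were -0.16 and -0.21. ILMN_2892310 differed by -0.05 without Ac-LDL sample 3. Both Stard3 probes were lower in 3 of 4 pairs, and neither separated the groups.

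Osbp encodes the oxysterol-binding protein that exchanges cholesterol for a phosphoinositide between the endoplasmic reticulum and the Golgi. Its tested probe measured 7.69, 7.73, 7.87 and 7.95 in control samples 1 to 4 and 7.65, 7.68, 7.83 and 7.94 in the Ac-LDL samples. The values tracked the replicate number closely, and the difference was -0.03 (95% interval -0.26 to 0.20, adjusted p = 0.994). The other Osbp probe was detected on 0 of 8 arrays.

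Soat1, whose enzyme makes the cholesteryl esters stored in foam cells, was read by 2 bright probes and 1 dim probe. ILMN_1248510 ran from 10.73 to 11.05 in control and from 10.62 to 10.92 in Ac-LDL samples, a difference of -0.07 (95% interval -0.31 to 0.17, adjusted p = 0.989). ILMN_2419998 differed by 0.03 (95% interval -0.20 to 0.27, adjusted p = 0.994). The bright probes pointed in opposite directions, and the widest bound of either interval was 1.24-fold. ILMN_1221350, detected on 4 control and 2 Ac-LDL arrays, differed by -0.11 (95% interval -0.36 to 0.14, adjusted p = 0.986).

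**Figure D3:**
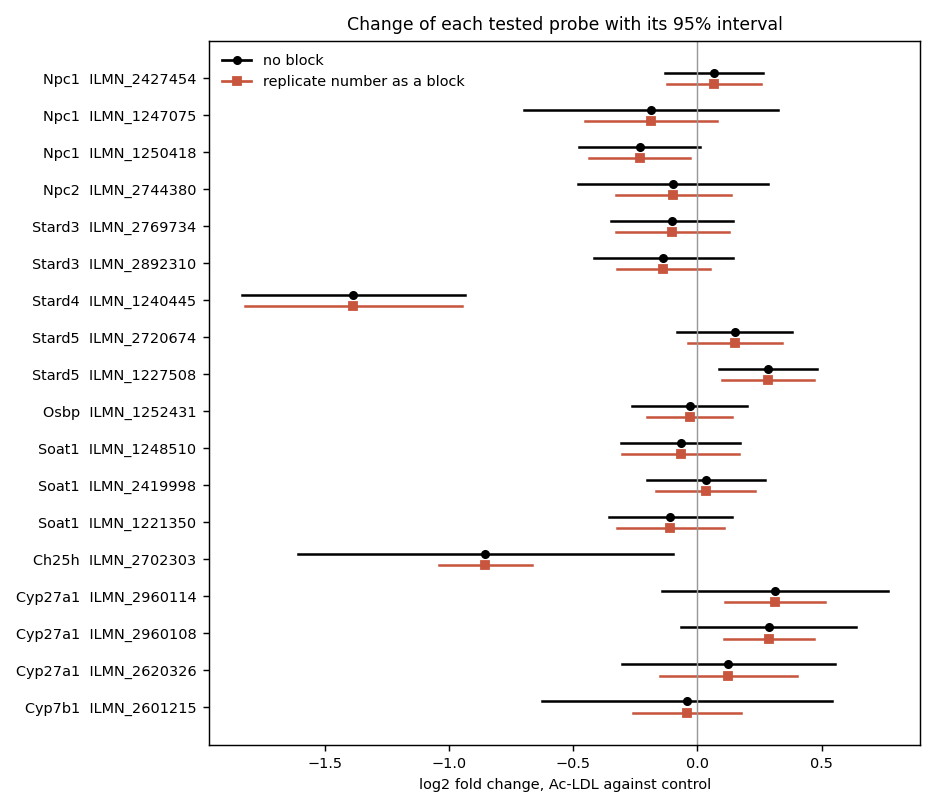
Log2 fold change (Ac-LDL against control) of each of the 18 tested probes with its 95% interval, without a block (black circles) and blocked by replicate number (red squares). The Stard4 interval stays below 0 in both fits, and the Ch25h interval narrows from -1.61 to -0.10 without the block to -1.04 to -0.67 with it.

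Ch25h encodes cholesterol 25-hydroxylase, an enzyme of the endoplasmic reticulum that interferons induce in macrophages and whose oxysterol product holds back SREBP-2 and limits viral entry. Its probe measured 8.65, 9.01, 7.70 and 8.35 in control samples 1 to 4. In the Ac-LDL samples it measured 7.91, 8.24, 6.73 and 7.41. The groups overlapped, since the lowest control value, in sample 3, lay below the highest Ac-LDL values, while each Ac-LDL sample was below the control of its own number.

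The 4 differences within pairs for Ch25h were -0.74, -0.78, -0.96 and -0.94, a narrower range than that of either group. The mean was 8.43 ± 0.56 (SD, n = 4) in control and 7.57 ± 0.65 (n = 4) in Ac-LDL samples, a log2 fold change of -0.85 (SE 0.34, 95% interval -1.61 to -0.10) or 1.81-fold lower (95% interval 1.07 to 3.05). Without a block the limma adjusted p was 0.887 and the exact permutation p was 0.114. Blocking on replicate number gave an adjusted p of 0.00895, placing Ch25h at rank 7 of 17122 by p-value, and blocking on slide gave 0.110. Over 28 alternatives the log2 fold change lay between -1.10 and -0.58 and the adjusted p between 0.00895 and 1.00. The call rested on the pairing, and in the blocked fit without the samples numbered 4 the adjusted p was 0.0535 at a log2 fold change of -0.82.

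Cyp27a1, the mitochondrial sterol hydroxylase whose product is a major oxysterol of macrophages, had 3 tested probes. ILMN_2960114 measured 6.99, 7.29, 7.66 and 7.73 in control samples 1 to 4 and 7.43, 7.48, 7.82 and 8.19 in the Ac-LDL samples, a difference of 0.31 (95% interval -0.14 to 0.77). ILMN_2960108 measured 6.69, 6.88, 7.30 and 7.25 in control and 7.10, 7.19, 7.51 and 7.48 in Ac-LDL samples, a difference of 0.29 (95% interval -0.06 to 0.64). Both were higher in 4 of 4 pairs with groups that overlapped, and higher on slide 2 than on slide 1 within each group. Their limma adjusted p was 0.961 and 0.960 without a block and 0.196 and 0.189 with the replicate block, so neither was called. Single arrays moved these values, to 0.16 for ILMN_2960114 without Ac-LDL sample 4, and to 0.17 for ILMN_2960114 and 0.18 for ILMN_2960108 without control sample 1. Under median scaling in place of quantile normalization the difference was 0.20 for ILMN_2960114 and 0.19 for ILMN_2960108. The third probe, ILMN_2620326, differed by 0.12 (95% interval -0.30 to 0.55, adjusted p = 0.989) and was higher in 2 of 4 pairs. It differed by 0.03 without Ac-LDL sample 4, by -0.08 without control sample 1 and by 0.03 under median scaling.

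Cyp7b1 encodes the hydroxylase that inactivates side-chain oxysterols. It measured 8.29, 9.09, 7.95 and 8.66 in control samples 1 to 4 and 8.05, 8.93, 8.15 and 8.69 in the Ac-LDL samples. Levels differed more between numbers than between groups, and the difference was -0.04 (95% interval -0.62 to 0.54, adjusted p = 0.997), or -0.26 to 0.17 as the interval with the replicate block. A change of up to 1.54-fold downward lies within the unblocked interval.

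**Figure D4:**
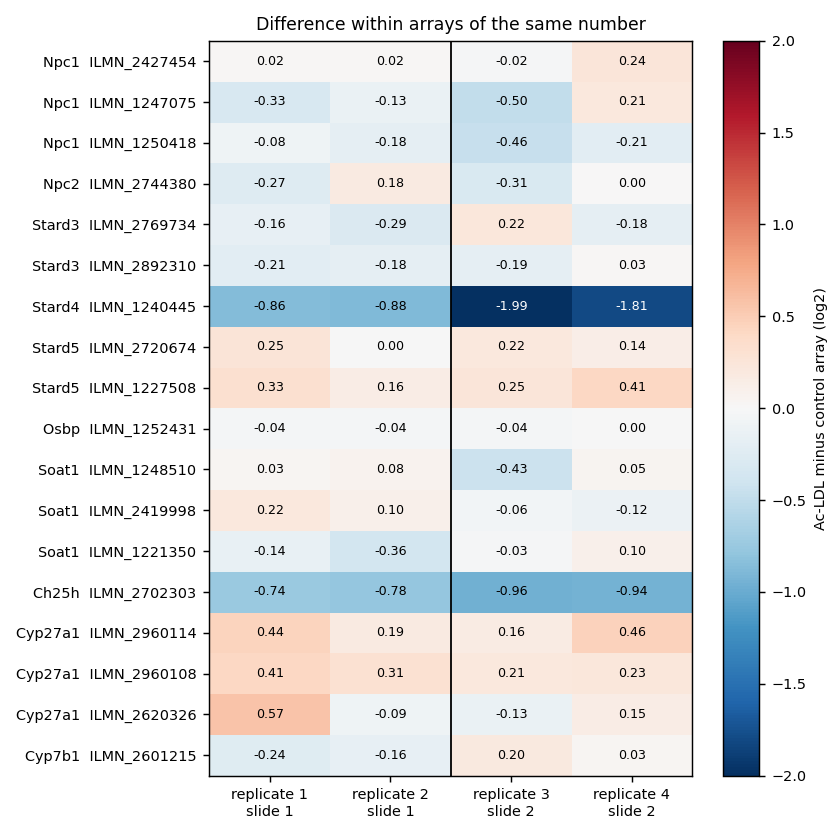
Difference in normalized log2 intensity between the Ac-LDL and the control array of the same number, for each tested probe (rows) and each of the 4 pairs (columns, with a line between the slides); blue is lower and red higher with Ac-LDL. Stard4 is lower in all columns and lower still on slide 2, Ch25h is between -0.96 and -0.74 throughout, and most other cells are near 0.

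The genes whose pattern over the 8 arrays was most like that of the called probes were found by Pearson correlation of deviations from the slide mean, which include the treatment difference itself. For Stard4 the closest were LOC100040592 (r = 0.998) and Sc4mol, a methylsterol oxidase of cholesterol synthesis (r = 0.998). Their own log2 fold changes were -1.10 and -1.45, and each was called in the replicate-blocked fit (adjusted p = 0.0349 and 0.0209). For Ch25h they were Cog3 (r = 0.992), Gp38 (r = 0.986) and the interferon-induced Rsad2 (r = 0.984), with log2 fold changes of -0.13, -0.15 and -0.40. In that fit those 3 were not called (adjusted p = 0.508, 0.424 and 0.0860). These correlations are over 8 arrays that share treatment and slide, and they are given as a description.

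Other genes of the same routes were taken from lists made by function. Of 51 such genes 49 were on the array and 31 had a tested probe, and of their 50 tested probes 0 were called without a block, with 2 lower at an unadjusted p under 0.05, against 2.47% of all tested probes. With the replicate block 1 was called, against 0.444% of all tested probes, and the median log2 fold change was 0.04. The called probe belonged to Rab9.

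Lysosomal sterol handling had 8 tested genes with 17 probes. Groups did not overlap for 4 of the 17, 2 lower (against 1.68% of all tested probes), from Rab9 and Tmem97, and 2 higher (against 2.11%), from Lamp1 and Rab7. The called probe was 1 of 2 for Rab9, a GTPase of late endosome to Golgi traffic, with a log2 fold change of -0.60 (95% interval -0.89 to -0.32, limma adjusted p = 0.257 without a block, 0.0364 blocked by replicate number and 0.0441 blocked by slide). With the replicate block and both samples of number 1, 2, 3 or 4 left out, this probe was not called. The brighter Rab9 probe differed by -0.11 (adjusted p = 0.989), so the probes of this gene pointed the same way at unlike sizes. Tmem97, which binds NPC1 and lowers its level, was lower in every Ac-LDL sample than in every control sample by -0.41 (95% interval -0.63 to -0.20), with an adjusted p of 0.386 without and 0.0982 with the block. Lamp1, a lysosomal membrane protein, differed by 0.13 (95% interval -0.06 to 0.32, adjusted p = 0.961). Of the 4 probes of Rab7, a GTPase of late endosomes, the brightest differed by 0.10 (adjusted p = 0.989), the one whose groups did not overlap, ILMN_1257810, by 0.15 (adjusted p = 0.961), and ILMN_2618549 by 0.29 with groups that overlapped (95% interval -0.18 to 0.77, adjusted p = 0.967).

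Sterol transfer proteins had 15 tested genes with 23 probes and 0 calls in the 3 fits. The largest differences were -0.29 for Vapa, the endoplasmic reticulum anchor of oxysterol-binding proteins (95% interval -0.64 to 0.06, adjusted p = 0.960), and 0.28 for Anxa6 (95% interval -0.12 to 0.67, adjusted p = 0.961). Esterification and ester hydrolysis had 4 tested genes and 0 calls. Soat2, the acyltransferase better known from liver and intestine, differed by -0.56 with a 95% interval of -1.94 to 0.82 (adjusted p = 0.986), and Lipe, a hormone-sensitive lipase, by 0.10 (adjusted p = 0.989). Oxysterol formation and breakdown had 4 tested genes with 6 probes and 0 calls, the largest differences being -0.15 for Hsd3b7, which acts on hydroxylated sterols (adjusted p = 0.961), and 0.14 for Gpr183, the receptor for oxysterols made through Ch25h and Cyp7b1 (adjusted p = 0.990). None of these 3 lists contained a probe at an unadjusted p under 0.05 without a block, or a probe whose groups did not overlap. Over the 50 tested probes of all 4 related lists, groups did not overlap for 2 higher and 2 lower, against 2.11% and 1.68% of all tested probes.

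Known targets of LXR were read in the same fits, with 6 tested genes and 8 probes. The other 2 of the 8 listed genes were on the array but detected in no sample, so their response could not be read. Of the 8 probes 0 were called without a block or with the slide block and 1 with the replicate block, against 0.444% of all tested probes in either direction. With an unadjusted p under 0.05 and no block there were 3, all higher, against 2.73% of all tested probes, and groups did not overlap for 2, both higher, against 2.11%. The called probe was that of Apoe, an apolipoprotein that accepts exported cholesterol, with a log2 fold change of 0.60 and an adjusted p of 0.0261 with the replicate block and 0.963 without it. The 2 probes without overlap were the Abcg1 probe, for a sterol exporter (0.48, 95% interval 0.26 to 0.70, adjusted p = 0.221), and the brighter Nr1h3 probe, for LXR alpha itself (0.36, 95% interval 0.12 to 0.60, adjusted p = 0.703). By brightest probe Pltp differed by 0.54 (95% interval 0.04 to 1.05, adjusted p = 0.907), Srebf1 by 0.05 and Lpcat3 by -0.01. Over the 8 probes, dimmer ones included, the log2 fold changes ran from -0.16 to 0.60, with 6 above 0 and 2 below.

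**Figure D5:**
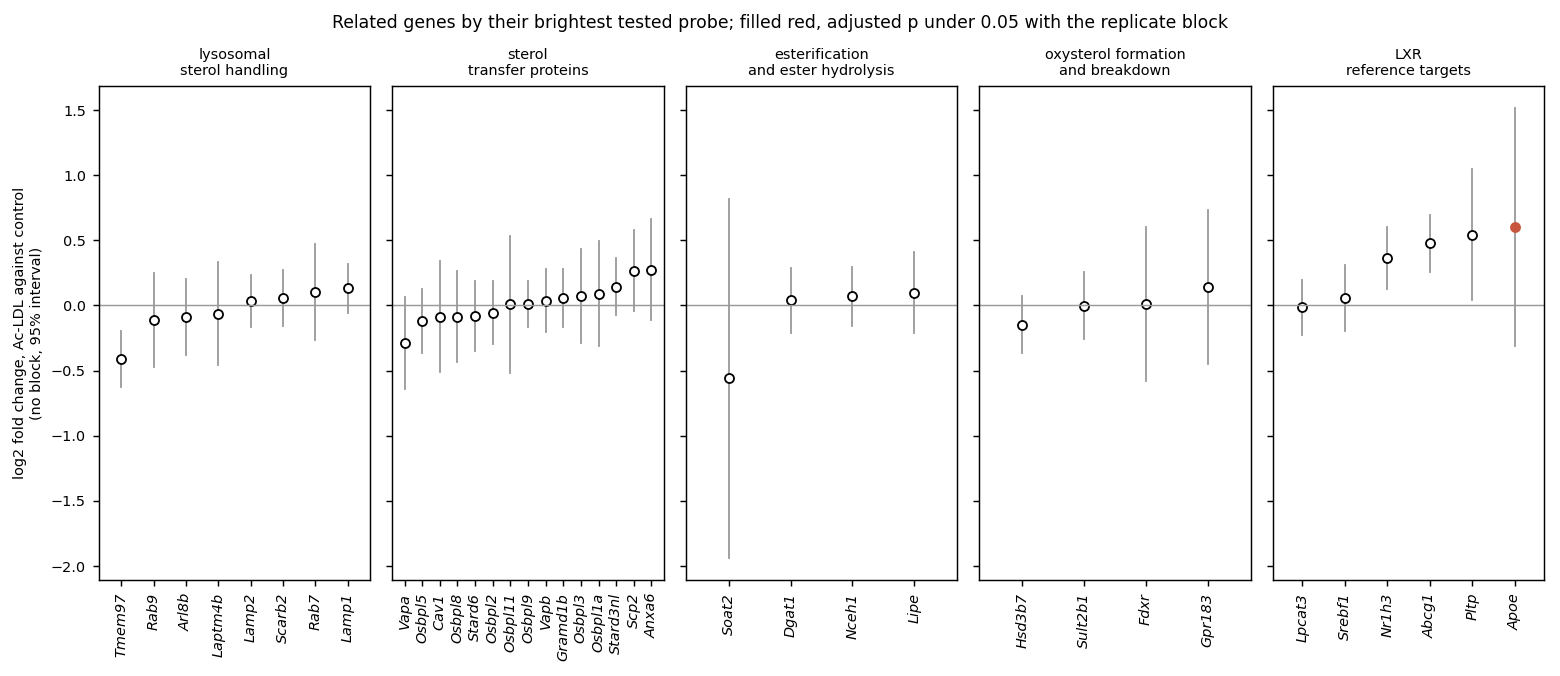
Log2 fold change (Ac-LDL against control) of each related gene by its brightest tested probe, with 95% intervals from the fit without a block, in 5 lists; filled red symbols had an adjusted p under 0.05 with the replicate block. The 4 sterol trafficking lists hold no filled symbol and centre near 0, and among the LXR targets Apoe, at 0.60, is filled.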

How the data were processed

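RNA from 8 samples was hybridised to Illumina Mouse WG-6 v2.0 arrays. The labels give total RNA, whereas the study's methods add an mRNA isolation step. The deposited table holds, per array, the authors' mean bead intensity per probe, neither background-subtracted nor normalized, a detection p-value deposited beside it, bead standard errors and bead numbers, summarised with BeadStudio according to the submitters' processing notes. The study normalized its data in GeneSpring. Those values were not used here, and the genome build of the probe annotation is not given in the sources used here. Every per-sample column belongs to 1 of the 8 samples.

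Intensities were background-corrected from the detection p-values (normexp, offset 16), quantile-normalized and log2-transformed with neqc in limma 3.58.1 (R 4.3.3). Probes detected (p at most 0.05) on at least 4 of 8 arrays were tested with lmFit and eBayes, Ac-LDL against control, without a block, as the study used an unpaired test. P-values were adjusted by Benjamini-Hochberg over all 17122 tested probes, and "called" means an adjusted p under 0.05. Intervals are 95%. Same-numbered samples deviated together, with correlations of deviations from the group means of 0.58, 0.48, 0.47 and 0.63 for numbers 1 to 4. Samples of unlike number on the same slide correlated at 0.43, 0.34, 0.19 and 0.45, and samples on different slides at -0.55 to -0.32, and the part of the shared slide in the correlation within numbers was not tested. All 4 pairs being over 0.1, the numbers were taken to pair the samples, from the data and the shared numbering of the labels. Samples of unlike number on the same slide were also over 0.1, so this rule cannot tell pairing by number from a shared slide. The fits with the replicate number or the slide as a block are given where they change a call. Alternatives covered the block, detection filter, background correction, offset, normalization, prior variance, the methods' t-test, probe averaging, each slide alone and leaving out samples. Scripts were tested on simulated data. The number of arrays limits the precision of a probe's value.

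The genes and lists were chosen with earlier results of these data known. All probes of the 10 genes are accounted for. Of the related lists, named genes are those called in any of the 3 fits and up to 2 more per list with the largest log2 fold change by brightest probe, and LXR reference targets stand by their brightest probe. Rab7 and its dimmer probes were added after their values were seen. Some genes that this rule names, and with them the SREBP-2 reference list, are not reported here. Stard4, Npc1 and Cyp7b1 promoters were not used here.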

Additional observations from a re-analysis of the deposited data

Results flagged for a closer look

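In 2 of 36 groups of 4 samples, 1 group for each condition and tested probe, a single sample stood apart by a gap that exceeded Dixon's 95% critical value, and chance alone gives about 1.8 such groups (5%). The Stard5 probe ILMN_1227508 read 9.148 in Ac-LDL sample 4, beside 8.980 to 9.002 in the other Ac-LDL samples. Without that sample the log2 fold change of this probe was 0.25 (limma adjusted p = 0.831). The Cyp27a1 probe ILMN_2620326 read 5.91 in control sample 1, beside 6.65 to 6.79 in the other control samples. Without it the log2 fold change was -0.08 in place of 0.12 (limma adjusted p = 1.00).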

How the results depend on the processing

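Of the 18 tested probes 0 were called in the fit without a block. The number was 2 under the replicate block, 1 under the slide block and 1 each with quantile normalization without background correction, with median scaling, with a trended and robust prior and within slide 2, and each single call was Stard4. Leaving out 1 array or both arrays of a number, it ran from 0 to 1, the 1 being Stard4 without control sample 2 (adjusted p = 0.0473). With the replicate block and both arrays of a number left out, an alternative chosen after the data were seen, it was 2, 2, 1 and 0 without numbers 1, 2, 3 and 4, and only Ch25h was called without number 3. Stard4 and Ch25h were lower in all 28 alternatives, the calls being 9 and 4 of 28. Over all 18 probes 26 of 503 values changed sign, in 9 probes that were called in no setting.

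Over all tested probes the 7 calls became 76 under the replicate block, 55 under the slide block, 26 with median scaling, 16 with the trended and robust prior, 14 with quantile normalization without background correction, 15 within slide 1, 14 within slide 2, and 0 with no detection filter or with the methods' t-test. Leaving out arrays gave 0 to 15, and with the replicate block 41, 50, 14 and 7 without numbers 1, 2, 3 and 4. Of the related probes 0 were called without a block and 1 under either block. With the replicate block and number 1, 2, 3 or 4 left out, 0 were called. Groups did not overlap for 2 of the 18 probes. The count was 12 within slide 1 and 7 within slide 2, where 45.4% and 36.6% of all tested probes do so with 2 samples per group, and 2 to 4 with arrays left out, where 5.17% to 10.8% do so, the 4 being without number 3 (8.77%).

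Only 4 samples per group were measured, 5 of the 23 probes were not above background on any array, and Stard4, Ch25h, Npc2, Osbp and Cyp7b1 each rest on 1 tested probe.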
